A study of Mus musculus with 9 samples.

Results

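The 10 genes followed in mouse kidney cortex belong to the blood vessel lining and to vascular endothelial growth factor (VEGF) signalling: Pecam1, Cdh5, Kdr, Flt1, Tek, Emcn, Ehd3, Plvap, Nos3 and Vegfa. They were chosen by name, 10 of the 22180 genes with a probe set on the array, and all 10 passed the filter on low values that left 17740 tested genes. In all, 3 groups of male C57BLKS/J mice aged 20 weeks were measured with 3 arrays each. The db/db+TSF mice carry 2 copies of the db mutation of the leptin receptor, which makes them obese and diabetic. They were gavaged daily with 2.4 g/kg of Tang-shen Formula (TSF), a mixture of Chinese medicinal herbs, over 12 weeks. The db/db mice have the same genotype and received saline, while db/m mice are lean, with only 1 mutated copy; the labels name no gavage for db/m. There were 9 mice in each db/db group by the labels, and each array is labelled a biological replicate. The series asked which genes TSF acts on in diabetic kidney injury.

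The capillaries of the glomerulus are lined by fenestrated endothelium, and podocytes on their outer face secrete VEGF-A, the ligand that keeps this endothelium alive and fenestrated. VEGF-A signals through the receptor tyrosine kinase KDR (VEGFR2), while FLT1 (VEGFR1) binds it tightly and also exists as a soluble decoy. The receptor TEK (TIE2) answers to angiopoietins and steadies the vessel wall, and endothelial nitric oxide synthase, the product of Nos3, makes the nitric oxide that relaxes vessels. In diabetic kidney disease the balance between VEGF-A and nitric oxide is a common topic of study.

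The sequences just before the start sites of the ligand gene and of its receptor genes are shown here, since the ligand and both receptors are described first among the results. They are the 250 bases before each start in RefSeq (GRCm38.p6), read 5′ to 3′ on the strand of the gene, which for all 3 is the minus strand. Capitals mark GGAAG or its reverse complement CTTCC, 1 form of the site around the GGA(A/T) core that ETS-family factors bind. That core with other letters after it is neither marked nor counted here. Kdr is given at chr5:75978456-75978705, Flt1 at chr5:147726012-147726261 and Vegfa at chr17:46032378-46032627.
Vegfa: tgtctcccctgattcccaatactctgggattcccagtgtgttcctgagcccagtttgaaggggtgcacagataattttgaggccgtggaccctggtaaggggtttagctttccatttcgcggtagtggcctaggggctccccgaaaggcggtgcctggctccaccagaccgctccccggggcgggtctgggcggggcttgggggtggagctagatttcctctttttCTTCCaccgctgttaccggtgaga
Kdr: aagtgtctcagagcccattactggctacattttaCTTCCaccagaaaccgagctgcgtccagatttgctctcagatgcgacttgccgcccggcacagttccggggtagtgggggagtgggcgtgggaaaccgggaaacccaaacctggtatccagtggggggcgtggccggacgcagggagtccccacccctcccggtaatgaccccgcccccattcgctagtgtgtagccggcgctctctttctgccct
Flt1: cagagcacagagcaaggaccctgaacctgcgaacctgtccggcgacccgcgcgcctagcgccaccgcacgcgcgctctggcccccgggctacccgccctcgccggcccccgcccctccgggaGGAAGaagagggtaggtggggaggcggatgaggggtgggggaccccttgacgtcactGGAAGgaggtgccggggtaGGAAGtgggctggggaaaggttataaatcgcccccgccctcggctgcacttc
The Flt1 window held 3 of these marked stretches, beginning 128, 71 and 52 bases before the start. The Kdr window held 1, at 216 bases, and the Vegfa window 1, at 24 bases. At least 1 such stretch, on either strand, was present in 64.1% of the 32851 promoter windows of this length in the table, so its presence sets none of the 3 apart. The letters ACGTG or CACGT, 1 form of the core of the hypoxia response element, were in none of the 3 windows shown and in 16.6% of all windows. The other form, GCGTG, was not counted; it is present in the Kdr window and, as its reverse complement CACGC, in the Flt1 window. RefSeq lists a further Vegfa start inside the gene, not shown, whose window (chr17:46025164-46025413) held 1 CACGT at 211 bases and 1 GGAAG at 10 bases before that start. Of the 7 windows of these genes, 5 held GGAAG or CTTCC and 1 held ACGTG or CACGT. The table held 6 of the 10 genes: Kdr, Flt1, Tek, Emcn, Ehd3 and Vegfa; Pecam1, Cdh5, Plvap and Nos3 are named only. The Kdr and Flt1 windows lie inside the outer bounds of their genes in RefSeq.

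Intensities are the deposited linear values of 1 probe set per gene, and they are compared between groups and not between genes, because probe sets differ in brightness. At a limma adjusted p under 0.05, 0 of the 10 genes passed in any comparison, where 1.05% of all tested genes passed in db/db against db/m, 0% in db/db+TSF against db/db and 3.13% in db/db+TSF against db/m. The array medians over all probe sets lay between 3.50 and 3.61 on the log2 scale, and no array was a copy of another. Of the markers of kidney cortex, 11 of 11 proximal tubule markers and 9 of the 12 podocyte markers had a probe set, and all of these lay above the filter. The filter takes the mean over all 9 arrays, so it does not show presence in each group. No leukocyte or adipocyte marker with a probe set lay under it either, so passing it does not identify the tissue. Because cortex is a mixture, fewer endothelial cells and less RNA per cell cannot be told apart. The db/db+TSF and db/m mice differ in genotype and in treatment, which cannot be told apart in that comparison.

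**Figure D1:**
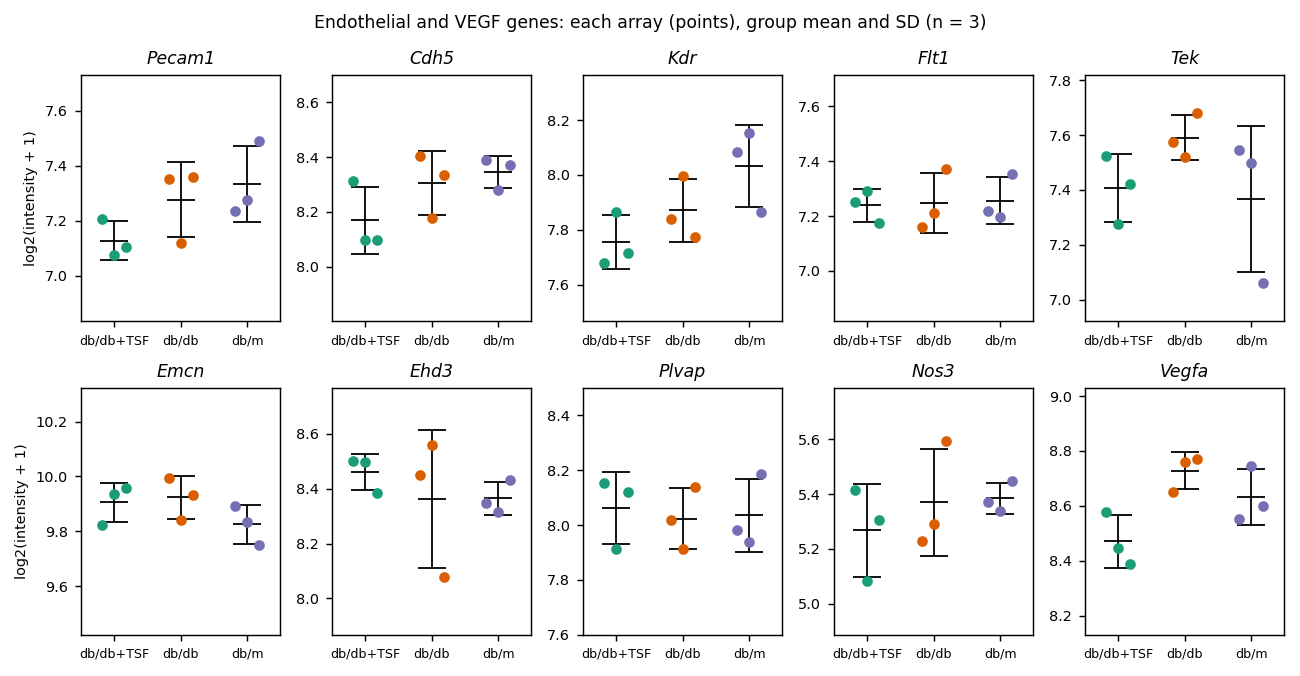
Each panel plots log2(intensity + 1) of 1 gene in the 3 arrays of db/db+TSF, db/db and db/m (points), with the mean and SD of each group (bars, n = 3); every panel spans the same height on the log2 scale. Only in the Vegfa panel do the 3 db/db+TSF points, 334 to 381 intensity units, all lie below the 3 db/db points, 401 to 436.

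Vegfa, the ligand, lies on chromosome 17 (46016993 to 46032377, GRCm38.p6). Its intensity was 381, 348 and 334 in db/db+TSF, 401, 433 and 436 in db/db and 374, 428 and 386 in db/m. The db/db+TSF arrays lay below all db/db arrays, while the db/m arrays overlapped both other groups. On the log2(intensity + 1) scale, which all log2 values here use, Vegfa averaged 8.47 ± 0.10 in db/db+TSF, 8.73 ± 0.07 in db/db and 8.63 ± 0.10 in db/m (SD, n = 3). The log2 fold change in db/db+TSF against db/db was -0.26 (SE 0.09, 95% interval -0.46 to -0.05), or 0.837-fold. Its unadjusted p was 0.0190 and its limma adjusted p was 0.350, so it did not pass over 17740 genes. Groups that do not overlap were found in 20.1% of all tested genes in this comparison, and in 12.3% with db/db+TSF lower. The Vegfa log2 fold change was 0.10 in db/db against db/m (interval -0.11 to 0.30, limma adjusted p = 0.691). It was -0.16 in db/db+TSF against db/m (interval -0.37 to 0.05, limma adjusted p = 0.424). The order of the Vegfa means was db/db, db/m, db/db+TSF, and neither pair of neighbours differed beyond its spread.

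Kdr, the main signalling receptor for VEGF-A, lies on chromosome 5 (75932827 to 75979072). Its intensity was 204, 232 and 209 in db/db+TSF, 228, 255 and 218 in db/db and 270.0, 283 and 232 in db/m. The mean was lowest in db/db+TSF, intermediate in db/db and highest in db/m, and the groups overlapped in every pair: db/m replicate 3 and db/db+TSF replicate 2 were both at 232. The log2 fold change of Kdr in db/db+TSF against db/m was -0.28 (SE 0.11, interval -0.51 to -0.04), or 0.825-fold, with an unadjusted p of 0.0241 and a limma adjusted p of 0.208. The log2 fold change of Kdr was -0.16 in db/db against db/m (interval -0.40 to 0.07, limma adjusted p = 0.539), and for db/db+TSF against db/db it was -0.12 (interval -0.35 to 0.12, limma adjusted p = 0.695). These 2 comparisons share the db/db arrays.

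Flt1, on chromosome 5 (147561604 to 147726438), was nearly flat. It measured 151, 156 and 144 in db/db+TSF, 142, 147 and 165 in db/db and 148, 146 and 163 in db/m, and its highest array was 1.16 times its lowest. The log2 fold change of Flt1 was -0.01 in db/db against db/m (interval -0.21 to 0.20), -0.01 in db/db+TSF against db/db (interval -0.21 to 0.20) and -0.02 in db/db+TSF against db/m (interval -0.22 to 0.19). These intervals bound any Flt1 difference between 0.857-fold and 1.15-fold. The 1 probe set does not separate soluble from membrane forms here.

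Tek, the angiopoietin receptor on chromosome 4 (94739086 to 94874976), had the largest spread of the 10. It measured 183, 154 and 170.4 in db/db+TSF, 189.5, 182 and 204 in db/db and 186, 179.7 and 133 in db/m. The db/m array at 133, replicate 3, stood below all other arrays, and db/db overlapped both other groups. The log2 fold change of Tek in db/db against db/m was 0.22 (SE 0.13, interval -0.07 to 0.51, limma adjusted p = 0.483). Without db/m replicate 3 it was 0.07 (limma adjusted p = 0.820), so that array carries most of the difference. The Tek log2 fold change was -0.18 in db/db+TSF against db/db (interval -0.47 to 0.10, limma adjusted p = 0.610) and 0.04 in db/db+TSF against db/m (interval -0.25 to 0.33, limma adjusted p = 0.917).

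Pecam1 and Cdh5 encode adhesion proteins of endothelial cell junctions, PECAM-1 (CD31) and VE-cadherin, on chromosome 11 (106654213 to 106715281) and chromosome 8 (104101613 to 104144504). Pecam1 measured 147, 134 and 137 in db/db+TSF, 162, 138 and 163 in db/db and 149.7, 154 and 179 in db/m. All db/db+TSF arrays lay below all db/m arrays for Pecam1; of all tested genes 22.1% had no overlap between these groups, and 12.4% had none with db/db+TSF lower. The log2 fold change of Pecam1 in db/db+TSF against db/m was -0.21 (SE 0.11, interval -0.44 to 0.02, limma adjusted p = 0.351). Cdh5 measured 317, 273 and 273 in db/db+TSF, 338, 288 and 321 in db/db and 334, 310.1 and 329.7 in db/m, with overlap in every pair of groups. Its log2 fold change in db/db+TSF against db/m was -0.18 (SE 0.10, interval -0.40 to 0.04, limma adjusted p = 0.400). Against db/db, the db/db+TSF arrays gave log2 fold changes of -0.15 for Pecam1 (limma adjusted p = 0.603) and -0.14 for Cdh5 (limma adjusted p = 0.617). Log2 fold changes in db/db against db/m were -0.06 for Pecam1 and -0.04 for Cdh5.

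Pecam1 is also made by leukocytes and platelets. The summed intensity of 11 leukocyte markers was 270.0 to 341 in db/db+TSF, 351 to 552 in db/db and 440 to 475 in db/m. In db/db+TSF against db/m 5 of the 11 fell (Adgre1, Cd68, Csf1r, Tyrobp and Cd3e), where 1.92% of all tested genes fell. The db/db mean intensity of Adgre1, Cd68, Csf1r and Tyrobp lay between those of the other groups, and that of Cd3e lay below both. Leaving out db/m replicate 1 or 2, or db/db+TSF replicate 3, ended each of the 5 calls (limma adjusted p between 0.0561 and 0.159), and other arrays left out ended some of them (up to 0.169 for Cd3e without db/db+TSF replicate 2). Between db/db+TSF and db/db 0 of the 11 passed and 10 lay below 0, where 43.9% of all tested genes lay above 0. The summed intensity of 5 platelet markers was 190.2 to 226 in db/db+TSF, 219 to 790.0 in db/db and 202 to 217 in db/m, with 0 past the threshold. The higher db/db sum lay in Ppbp (mean 261 in db/db and 110 in db/m, highest array 549) and Gp9 (90.6 and 41.6, highest array 172). Pf4, Itga2b and Treml1 averaged 17.5, 24.8 and 16.5 in db/db and 17.5, 25.8 and 15.4 in db/m. No marker with a probe set on either list lay under the filter. The part of these cells in the Pecam1 values was not tested.

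Ehd3, which encodes an endocytic recycling protein that marks glomerular endothelium in the mouse, lies on chromosome 17 (73804841 to 73832093). It measured 361, 360.3 and 332.9 in db/db+TSF, 349, 376 and 269 in db/db and 325, 317 and 344 in db/m. The db/db arrays held both the highest and the lowest value. Without db/db replicate 3, at 269, the log2 fold change in db/db against db/m was 0.14 in place of 0.00 (interval -0.27 to 0.26 with all arrays), and neither passed. Against db/db, db/db+TSF gave 0.10 for Ehd3 (interval -0.17 to 0.36), and -0.04 without that array; against db/m it gave 0.10 (interval -0.17 to 0.36).

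Plvap, on chromosome 8 (71497753 to 71511806), forms the diaphragms of fenestrae in peritubular capillaries. It measured 283, 240.0 and 277 in db/db+TSF, 258, 240.2 and 281 in db/db and 252, 244 and 290.4 in db/m, and the 3 ranges nearly coincided. The Plvap log2 fold change was 0.04 in db/db+TSF against db/db (interval -0.20 to 0.28), 0.03 in db/db+TSF against db/m (interval -0.21 to 0.26) and -0.01 in db/db against db/m (interval -0.25 to 0.22). Emcn, on chromosome 3 (137341062 to 137431069), encodes endomucin, a sialomucin of capillary and venous endothelium. It measured 904, 979 and 993 in db/db+TSF, 1020.2, 917 and 976 in db/db and 948, 912 and 860.1 in db/m. Its log2 fold change was 0.10 in db/db against db/m (interval -0.10 to 0.29), -0.02 for db/db+TSF against db/db (interval -0.21 to 0.18) and 0.08 for db/db+TSF against db/m (interval -0.11 to 0.28). Nos3, on chromosome 5 (24364816 to 24384474), measured 41.7, 32.9 and 38.5 in db/db+TSF, 36.5, 38.1 and 47.3 in db/db and 40.3, 39.5 and 42.6 in db/m. The db/m arrays lay within the range of db/db, and the Nos3 log2 fold change was -0.01 in db/db against db/m (interval -0.28 to 0.25), -0.10 for db/db+TSF against db/db (interval -0.37 to 0.16) and -0.12 for db/db+TSF against db/m (interval -0.38 to 0.15). Limma adjusted p-values of Plvap, Emcn, Nos3 and Ehd3 lay between 0.663 and 0.996 over the 3 comparisons.

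**Figure D2:**
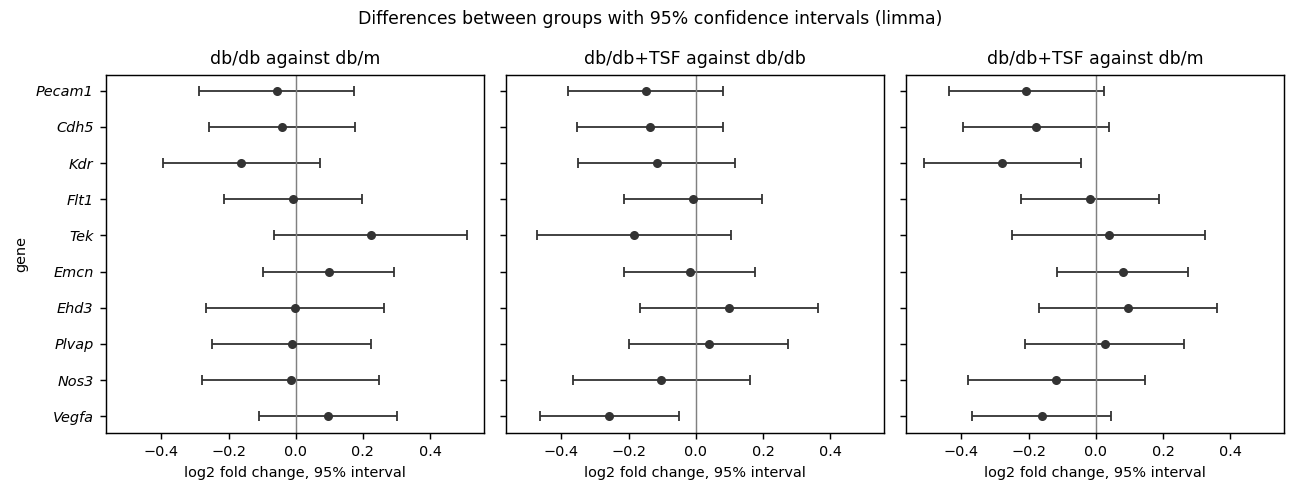
Points give the log2 fold change of each gene in db/db against db/m, db/db+TSF against db/db and db/db+TSF against db/m, and bars its 95% confidence interval from limma (3 arrays per group). Only Vegfa in db/db+TSF against db/db (-0.46 to -0.05) and Kdr in db/db+TSF against db/m (-0.51 to -0.04) have intervals that leave out 0, neither with adjustment for the 17740 genes.

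As a group the 10 genes stood close to the bulk of all genes. Between db/db and db/m 0 of 10 passed the threshold, where 1.05% of all tested genes passed (0.592% higher and 0.462% lower in db/db), and 0 of 10 had an unadjusted p under 0.05, against 13.9% of all. The ranges of the groups overlapped for each of the 10, whereas 18.6% of all genes showed no overlap (10.4% higher and 8.28% lower in db/db). Between db/db+TSF and db/db 0 of 10 passed and 0% of all genes did, with a smallest limma adjusted p of 0.145. Vegfa alone had an unadjusted p under 0.05, against 2079 genes or 11.7% of all. It was also the only gene of the 10 without overlap, against 20.1% of all genes (12.3% with db/db+TSF lower, as for Vegfa, and 7.81% with it higher). Between db/db+TSF and db/m 0 of 10 passed, against 3.13% of all genes (1.22% higher and 1.92% lower in db/db+TSF). Kdr alone had an unadjusted p under 0.05 there, against 17.2% of all genes. Pecam1 alone showed no overlap, against 22.1% of all genes (12.4% with db/db+TSF lower, as for Pecam1, and 9.76% with it higher).

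**Figure D3:**
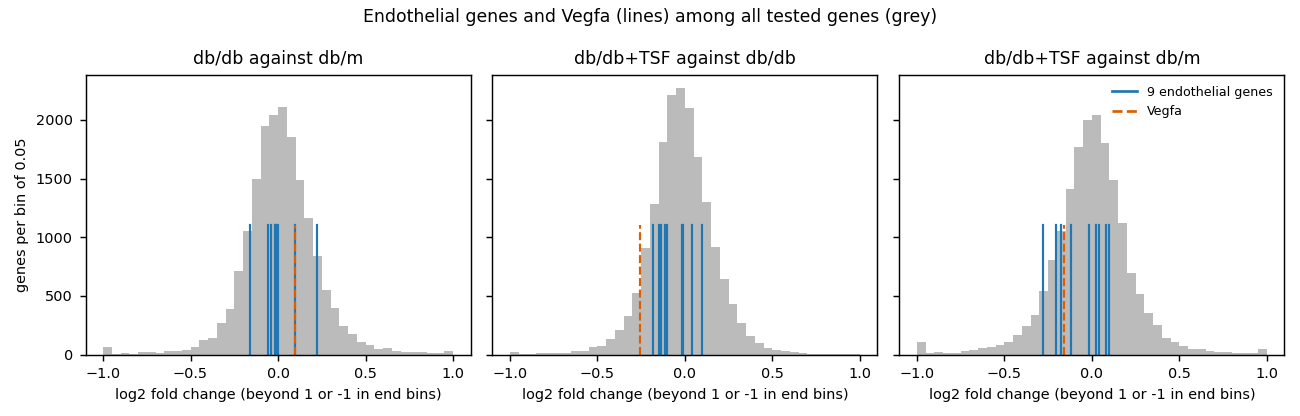
Grey bars count tested genes by log2 fold change in bins of 0.05, with values beyond 1 or -1 placed in the end bins; solid lines mark the 9 endothelial genes and the dashed line Vegfa. All lines lie within 0.28 of 0, inside the main body of the 17740 genes; the Vegfa line at -0.26 is the farthest from 0 in the panel of db/db+TSF against db/db.

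The 9 endothelial genes, without Vegfa, had a median log2 fold change of -0.01 in db/db against db/m, where the median of all tested genes was 0.01, and 2 of the 9 lay above 0, against 52.2% of all genes. Their median in db/db+TSF against db/db was -0.10, against -0.02 for all genes, and 2 of 9 lay above 0, against 43.9% of all genes. Their median in db/db+TSF against db/m was -0.02, against 0.00 for all genes, with 4 of 9 above 0, against 50% of all genes. The mean deviation of the 9 genes from their own averages was 0.01, -0.08 and -0.05 in the db/db+TSF arrays, 0.03, -0.02 and 0.05 in the db/db arrays and 0.03, 0.01 and 0.02 in the db/m arrays. Replicates 2 and 3 of db/db+TSF stood lowest, and replicate 1 lay among the other groups. Between db/db+TSF and db/db the medians of all tested genes moved the same way. They averaged 5.28 in db/db+TSF and 5.37 in db/db, a difference of -0.08, while the medians of all probe sets differed by 0.06 in the other direction. In db/db against db/m the medians of all tested genes differed by 0.06, while the means of the 9 genes were both 0.02. The group means of the 9 genes were -0.04 ± 0.05 in db/db+TSF, 0.02 ± 0.04 in db/db and 0.02 ± 0.01 in db/m (SD, n = 3), a difference of -0.06 between db/db+TSF and db/db. A mean over genes is not the same measure as the difference of array medians above. Taken gene by gene, the median log2 fold change of all tested genes was -0.02. With array medians set equal their median in db/db+TSF against db/db was -0.16, against -0.083 for all genes, and with quantile normalization it was -0.06, against -0.015 for all genes.

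Spread within groups sets what could be seen. The SD within groups ran from 0.07 for Emcn to 0.18 for Tek on the log2 scale, against a median of 0.14 over all tested genes. Between db/db and db/m a difference of 1.35-fold for Emcn up to 1.55-fold for Tek would have passed at the largest p that passed there. Between db/db+TSF and db/db, where the first gene to pass would need a p of 2.8e-06, the corresponding sizes ran from 1.71-fold for Emcn to 2.20-fold for Tek, and between db/db+TSF and db/m from 1.29-fold for Emcn to 1.46-fold for Tek. The 95% intervals of the 10 genes reached at most 0.760-fold or 1.42-fold in db/db against db/m, 0.721-fold or 1.29-fold in db/db+TSF against db/db, and 0.701-fold or 1.28-fold in db/db+TSF against db/m.

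Other VEGF ligands and receptors showed 1 change. Vegfd, a ligand of the lymphatic receptor FLT4 (and of KDR in human), averaged 6.95 in db/db+TSF, 6.94 in db/db and 6.32 in db/m. It rose in db/db+TSF against db/m (log2 fold change 0.63, SE 0.13, limma adjusted p = 0.0278). Its log2 fold change was 0.62 in db/db against db/m, and the limma adjusted p of 0.0502 lay just outside the threshold. The call against db/m in db/db+TSF depended on single arrays: leaving out db/m replicate 1 ended it (adjusted p = 0.0957), and so did db/m replicate 2 (0.0828), db/db+TSF replicate 1 (0.0783) or replicate 2 (0.1045). The other 6 genes of this list, Vegfb, Vegfc, Pgf, Flt4, Nrp1 and Nrp2, did not pass in any comparison. The co-receptor genes Nrp1 and Nrp2 differed by 0.25 and -0.31 in db/db+TSF against db/m (limma adjusted p = 0.239 and 0.127). Of the 6 angiopoietin and Tie pathway genes 0 passed in any comparison. Angpt2, the antagonist ligand of TEK in most settings, averaged 4.46 in db/db+TSF and 5.18 in db/db (log2 fold change -0.72, SE 0.29, limma adjusted p = 0.389). Angpt4, with the smallest p of the list there, went the other way. It averaged 3.63 in db/db+TSF and 3.29 in db/db (0.34, SE 0.09, limma adjusted p = 0.284), both near the bottom of the intensity scale. Of the 6 genes, 4 lay above 0 in that comparison.

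Among 24 other endothelial surface and junction genes, 0 passed in db/db against db/m, with 19 above 0 and a median of 0.10, where 52.2% of all genes lay above 0. Between db/db+TSF and db/db 0 passed and 21 of 24 lay below 0, with a median of -0.18 against -0.02 for all genes, of which 43.9% lay above 0. Against db/m, 2 of 24 fell in db/db+TSF and 0 rose, where 1.92% of all tested genes fell and 1.22% rose. There 10 of the 24 lay above 0, where 50% of all genes did. Podxl (0.37, limma adjusted p = 0.0572) and Adgrl4 (0.40, limma adjusted p = 0.0894) were higher in db/db+TSF than in db/m but did not pass. Robo4, an endothelial receptor that guards vessel integrity, averaged 5.46 in db/db+TSF and 6.03 in db/m (log2 fold change -0.57, SE 0.12, limma adjusted p = 0.0302). Ace, the angiotensin-converting enzyme, averaged 8.55 in db/db+TSF and 9.83 in db/m (-1.28, SE 0.31, limma adjusted p = 0.0482), and in kidney it is also made by proximal tubule cells. For Robo4, any 1 array of db/m left out ended the call (limma adjusted p 0.0657, 0.0788 and 0.0760 for replicates 1, 2 and 3), as did db/db+TSF replicate 2 (0.112) or replicate 3 (0.118). For Ace, the same held for db/m replicate 1 (0.134), 2 (0.0659) or 3 (0.141), db/db replicate 1 (0.0729), 2 (0.0689) or 3 (0.0588) and db/db+TSF replicate 3 (0.103), and its log2 fold change was -0.84 without db/db+TSF replicate 2. Many processing alternatives also ended the Ace call, with limma adjusted p between 0.0513 (quantile normalization) and 0.132 (trend and robust settings). Between db/db and db/m Robo4 differed by -0.54 (limma adjusted p = 0.0612) and Ace by -0.97 (0.176). Clec14a, an endothelial lectin, had the smallest p of the list in db/db+TSF against db/db (-0.39, SE 0.10, limma adjusted p = 0.266).

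Of 20 endothelial transcription factors, which include the ETS factors Erg, Fli1 and Ets1, 0 passed in any comparison, and medians were -0.07 in db/db against db/m, 0.02 in db/db+TSF against db/db and -0.03 in db/db+TSF against db/m. Elk3, an ETS repressor, had the smallest p in db/db+TSF against db/db (-0.20, limma adjusted p = 0.406). Of 11 Notch pathway genes, which pattern sprouting vessels, 0 passed, and 9 of 11 lay below 0 in db/db+TSF against db/db (median -0.20). Dll4, the Notch ligand of tip cells, averaged 5.44 in db/db+TSF, 5.68 in db/db and 6.05 in db/m. Its log2 fold change in db/db+TSF against db/m was -0.61 (SE 0.17, limma adjusted p = 0.0883). Of 16 nitric oxide pathway genes 0 passed in any comparison, and the list medians lay between 0.00 and 0.04. Cav2, a caveolin, had the smallest p of that list in db/db+TSF against db/m (0.37, limma adjusted p = 0.200).

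The endothelin pathway had 1 of 6 tested genes fall in db/db+TSF against db/m. Ece1, which cleaves the endothelin precursor, averaged 8.26 in db/db+TSF, 8.47 in db/db and 8.77 in db/m. Its log2 fold change was -0.50 in db/db+TSF against db/m (SE 0.10, limma adjusted p = 0.0243) and -0.29 in db/db against db/m (limma adjusted p = 0.215). Its call ended with db/m replicate 1 (0.0631) or 2 (0.0729), or db/db+TSF replicate 2 (0.0957) or 3 (0.0821), left out. Edn1, the gene of endothelin-1, averaged 4.54 in db/db and 4.01 in db/m (0.53, limma adjusted p = 0.201).

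Of 9 tested endothelial activation and adhesion genes, F3 fell in db/db+TSF against db/m. F3 encodes tissue factor, the starter of coagulation, which is not limited to endothelium. It averaged 7.14 in db/db+TSF, 7.61 in db/db and 7.69 in db/m (log2 fold change -0.55 against db/m, SE 0.09, limma adjusted p = 0.0113; -0.47 against db/db, limma adjusted p = 0.190). With db/db+TSF replicate 2 left out the call against db/m ended (0.0518). Vcam1, Icam1, Sele and Selp, the adhesion genes of activated endothelium, did not pass in any comparison. Of 10 anti-angiogenic secreted genes 1 passed, Thbs1, the thrombospondin gene. Its mean intensity was 291 in db/db+TSF, 265 in db/db and 212 in db/m. On the log2 scale it averaged 8.19 in db/db+TSF and 7.73 in db/m (0.46, SE 0.10, limma adjusted p = 0.0306). That call ended with any 1 array of either group left out, with limma adjusted p of 0.0557 (db/m replicate 1 left out) to 0.118 (db/db+TSF replicate 3 left out).

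**Figure D4:**
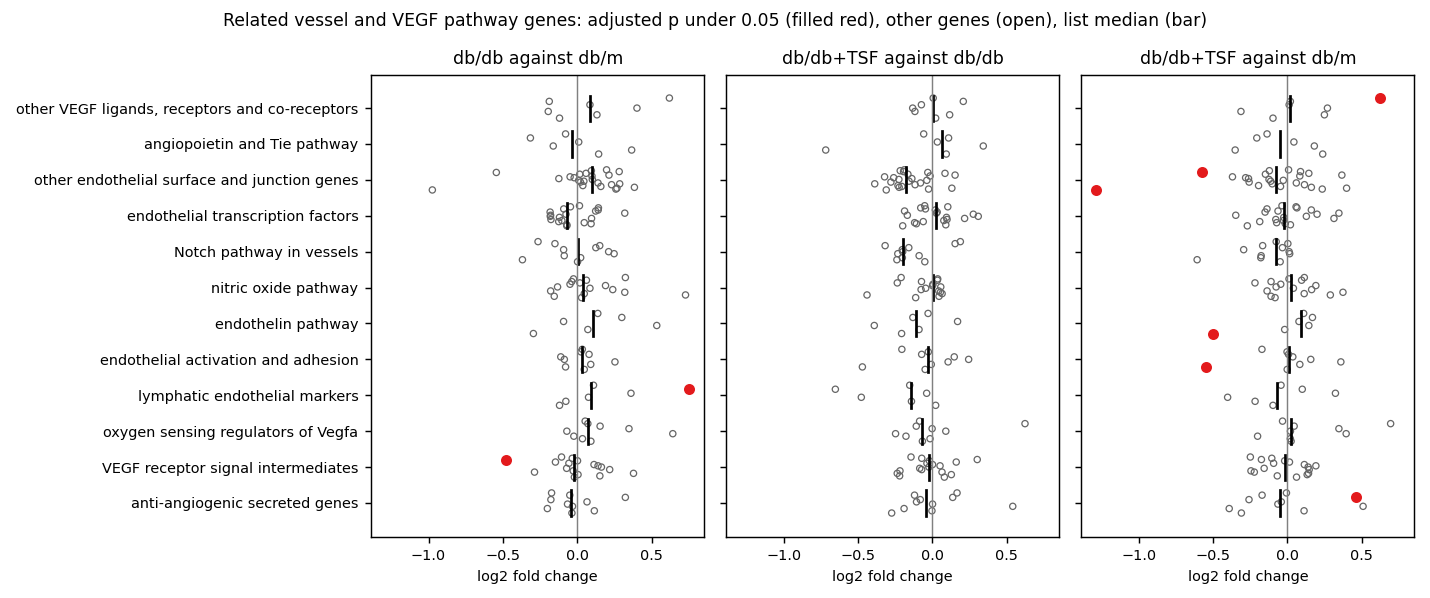
Each row is a list of vessel or VEGF pathway genes and each circle the log2 fold change of 1 tested gene; filled red circles passed a limma adjusted p of 0.05 and black bars are list medians. In db/db against db/m 2 genes passed (Prox1 and Sh2d2a), in db/db+TSF against db/db 0, and in db/db+TSF against db/m 6 (Vegfd, Robo4, Ace, Ece1, F3 and Thbs1).

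Of 6 lymphatic markers, Prox1 rose in db/db against db/m. It encodes the transcription factor that sets lymphatic identity, and kidney tubules also express it. It averaged 4.58 in db/db+TSF, 5.23 in db/db and 4.48 in db/m (log2 fold change 0.75 in db/db against db/m, SE 0.13, limma adjusted p = 0.0233; -0.65 in db/db+TSF against db/db, limma adjusted p = 0.190). The other lymphatic markers tested, Lyve1, Pdpn, Flt4, Reln and Mmrn1, did not pass. Leaving out db/m replicate 1 (0.0616), 2 (0.0654) or 3 (0.0685), or db/db replicate 1 (0.0838) or 3 (0.0891), ended the Prox1 call. Of 17 tested intermediates of VEGF receptor signalling 1 passed: Sh2d2a, an adaptor of KDR and of T cells, averaged 3.07 in db/db and 3.55 in db/m (-0.48, SE 0.09, limma adjusted p = 0.0344), both near the bottom of the intensity scale. Any 1 array of either group left out ended its call (limma adjusted p between 0.0583 for db/db replicate 2 and 0.129 for db/db replicate 3), as did db/db+TSF replicate 1 (0.0540) or 3 (0.0574), and a pseudocount of 16 also ended it (log2 fold change -0.19, limma adjusted p = 0.0943). Of 11 leukocyte markers Cd3e, a T cell gene, also fell in that comparison (-0.78, limma adjusted p = 0.0239), a call that ended with db/m replicate 1 (0.0688) or db/db replicate 1 (0.0951) or 3 (0.0900) left out. The part of T cells in the Sh2d2a value was not tested.

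Vegfa is made by podocytes and tubule cells, and its transcription is driven by hypoxia-inducible factors. Of 9 genes of oxygen sensing 0 passed in any comparison. Hif1a, the inducible factor subunit, averaged 8.40 in db/db+TSF, 8.40 in db/db and 8.05 in db/m. Egln3, a prolyl hydroxylase that is itself hypoxia-induced, averaged 7.84 in db/db+TSF, 8.09 in db/db and 7.44 in db/m. Their log2 fold changes in db/db against db/m were 0.35 for Hif1a (limma adjusted p = 0.156) and 0.64 for Egln3 (limma adjusted p = 0.149). Hif3a, also on this list, averaged 5.25 in db/db+TSF, 4.63 in db/db and 4.55 in db/m. The db/db+TSF arrays gave it log2 fold changes of 0.69 against db/m (limma adjusted p = 0.0622) and 0.62 against db/db. The latter had an unadjusted p of 0.00465, the smallest of the list there, and a limma adjusted p of 0.284. Against db/db, 7 of the 9 genes lay below 0, with Egln3 at -0.25 and Hif1a at -0.0015. The summed intensity of 9 podocyte markers was 1469 to 1597 in db/db+TSF, 1430.4 to 1559 in db/db and 1302 to 1333 in db/m. Podxl, which is also on the list of endothelial surface genes, and Clic5 were the brightest of the 9 markers. Of these markers 0 of 9 passed in any comparison, and 9 of 9 lay above 0 in db/db against db/m (median 0.18), where 52.2% of all genes did. Between db/db+TSF and db/db, where the Vegfa groups did not overlap, 4 of the 9 podocyte markers lay above 0, against 43.9% of all genes. The summed intensity of 12 pericyte, mesangial and smooth muscle markers was 1922 to 2070.3 in db/db+TSF, 2122 to 2164 in db/db and 1760.1 to 1835 in db/m. Bright genes weigh most in such a sum, and the pericyte gene Rgs5 averaged 566 in db/db+TSF, 585 in db/db and 375 in db/m. In db/db against db/m 10 of the 12 lay above 0 (median 0.17), where 52.2% of all genes did. Rgs5 rose in db/db against db/m (0.64, limma adjusted p = 0.0233) and in db/db+TSF against db/m (0.60, limma adjusted p = 0.0161). The first Rgs5 call ended with db/m replicate 2 (0.0665) or 3 (0.0653) or db/db replicate 1 (0.0680) or 3 (0.0772) left out, and the other with db/m replicate 2 (0.05004) or db/db+TSF replicate 2 (0.0651) or 3 (0.0575) left out. Of the tubule markers, 2 of 10 of the loop and distal tubule rose in db/db against db/m (Slc8a1 and Calb1) and 3 of 10 rose in db/db+TSF against db/m (Slc8a1, Calb1 and Pvalb). Of 11 proximal tubule markers 1 fell in db/db+TSF against db/m (Kap), while 0 of 9 collecting duct and 0 of 5 adipocyte markers passed in any comparison. The Slc8a1 and Calb1 calls in db/db+TSF against db/m held with any 1 array left out. Those in db/db against db/m both ended with db/m replicate 1 or 3, db/db replicate 1 or 3 or db/db+TSF replicate 1 left out (0.0525 to 0.155). The Calb1 call there also ended with db/db+TSF replicate 2 (0.0600) or 3 (0.0806) left out, and the Slc8a1 call with db/m replicate 2 (0.0539) or db/db replicate 2 (0.0999) left out. The Kap call ended with any db/m array left out (0.0701 to 0.0923), and that of Pvalb with db/m replicate 1 or 2 or any db/db+TSF array left out (0.0580 to 0.0767). The part of these cell types in the Vegfa values was not tested.

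Genes whose pattern over the 9 arrays was most like that of the 9 endothelial genes were Pkp2, Lepr, Mrs2, Afap1l1 and Jcad, with Pearson r of 0.975, 0.958, 0.95, 0.95 and 0.948 and Spearman rho of 0.917, 1, 0.983, 0.933 and 0.867. Lepr, the gene mutated in these mice, averaged 3.35 in db/db+TSF, 3.96 in db/db and 3.83 in db/m. Those most like Vegfa were Tubgcp3, Map3k3, Aqp3, Thada and Tspan14, with r of 0.952, 0.945, 0.936, 0.936 and 0.931 and a rho of 0.933 for each. These were picked as the highest among all other tested genes over only 9 arrays, and they are given as a measure of likeness without a test. Aqp3, a water channel of the collecting duct, averaged 8.06 in db/db+TSF, 8.43 in db/db and 8.27 in db/m, the same order of means as Vegfa.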

How the data were processed

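RNA of kidney cortex was hybridised to 9 Affymetrix arrays, 3 per group. The deposited values are linear intensity values, 1 per probe set and array; the submitters' processing notes name the Affymetrix programs Expression Console and Transcriptome Analysis Console. Their settings for background, summary and normalization were not given in the sources used here. No detection calls were used.

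The platform annotation gave the gene names, and 23328 of 23521 with 1 gene symbol matched RefSeq (GRCm38.p6) by Entrez identifier. The brightest probe set stood for its gene; each of the 10 genes had 1. Values were taken as log2(value + 1), and genes whose mean lay below 2.65, the 30th percentile over probe sets, were left out. A limma model (version 3.58.1, R 4.3.3) took the 9 arrays together, with a mean for each group, and p-values were adjusted by the Benjamini-Hochberg method over 17740 genes, with a threshold of 0.05. Fold changes understate those of dim genes. The fit was tested on simulated data. With 3 arrays per group, precision is limited by the number of arrays. The limma p-values set each group difference against the spread between arrays, after that spread is drawn toward the spread of all tested genes.

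The 10 genes and the lists of related genes and cell type markers, taken from textbook knowledge, were chosen with earlier results of these data known. Named were all 10 genes, list genes past the threshold, up to 3 of smallest p per list and comparison, and the 5 genes most alike in pattern; a few other list genes (Vegfb, Flt4, Erg, Vcam1 and the like) are named by role. Alternatives changed the filter, pseudocount, scaling, probe sets, variance model, weights, arrays in the fit, replicate block and test, and left out each array in turn.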

Additional observations from a re-analysis of the deposited data

How the results depend on the processing

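Of the 10 genes, 0 passed in each comparison under every alternative run. The lowest limma adjusted p was 0.328 (Kdr without db/m replicate 3) in db/db against db/m, 0.189 (Vegfa with array weights) in db/db+TSF against db/db and 0.0836 (Kdr with array weights) in db/db+TSF against db/m. The Vegfa log2 fold change in db/db+TSF against db/db stayed between -0.32 and -0.22 over 21 alternatives. Which genes showed no overlap changed with the scaling. With array medians set equal, Tek joined Vegfa in db/db+TSF against db/db, and Kdr joined Pecam1 in db/db+TSF against db/m. With quantile normalization, Vegfa joined Pecam1 in db/db+TSF against db/m. The shares of all genes without overlap were not counted under these settings. The replicate numbers were not taken to pair the arrays, since deviations of same-numbered arrays correlated between -0.079 and 0.146. With the replicate block, 137, 0 and 434 genes passed, in place of 187, 0 and 556, and still 0 of the 10. Without moderation 0 genes passed in any comparison, where limma passed 187 in db/db against db/m, and 556 for db/db+TSF against db/m. With 1 array left out, counts ran from 72 to 194 in db/db against db/m, and from 213 to 563 in db/db+TSF against db/m. The median of the 9 endothelial genes then ran from -0.070 to 0.031 in db/db against db/m, from -0.10 to -0.035 in db/db+TSF against db/db and from -0.086 to -0.0034 in db/db+TSF against db/m. With array medians set equal it was -0.16 in db/db+TSF against db/db and -0.063 in db/db+TSF against db/m, and with quantile normalization -0.056 in db/db+TSF against db/db.

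Signs turned for differences near 0. With array medians set equal, log2 fold changes in db/db against db/m were 0.012 for Ehd3, 0.0050 for Flt1 and 0.0018 for Plvap. Plvap was then -0.021 in db/db+TSF against db/db and -0.019 in db/db+TSF against db/m, and Tek -0.0068 in db/db+TSF against db/m. With array weights the values were 0.046 for Ehd3, 0.0053 for Flt1 and 0.024 for Plvap in db/db against db/m, and -0.048 for Tek in db/db+TSF against db/m. With quantile normalization Flt1 was 0.040 in db/db+TSF against db/db and 0.0063 in db/db+TSF against db/m. With 1 array left out, values in db/db against db/m ran from -0.092 to 0.023 for Cdh5, -0.10 to 0.14 for Ehd3, -0.071 to 0.040 for Flt1, -0.13 to 0.056 for Nos3, -0.11 to 0.022 for Pecam1 and -0.070 to 0.064 for Plvap. They ran from -0.044 to 0.20 for Ehd3, -0.058 to 0.023 for Emcn, -0.052 to 0.053 for Flt1, -0.18 to 0.0083 for Nos3 and -0.016 to 0.11 for Plvap in db/db+TSF against db/db. They ran from -0.047 to 0.031 for Flt1, -0.023 to 0.10 for Plvap and -0.11 to 0.13 for Tek in db/db+TSF against db/m. The cause of these changes was not tested, beyond the fewer arrays in each fit. The list genes that passed, tried under the same alternatives after the data were seen, kept their sign in each, but all calls ended without moderation (adjusted p 0.353 or higher). Other alternatives ended some of the calls, with the limma adjusted p given in brackets. In db/db+TSF against db/m, Ace ended with no filter (0.0556), a pseudocount of 16 (0.0673) or none (0.0543), quantile normalization (0.0513), trend and robust settings (0.132), array weights (0.0533) or the 2 groups alone (0.0944). Robo4 ended with the 2 groups alone (0.0556) or the replicate block (0.0562), Thbs1 with the replicate block (0.0562), and Kap with trend and robust settings (0.113) or the 2 groups alone (0.0633). Adgre1 (0.0539), Cd68 (0.0576), Csf1r (0.0568) and Cd3e (0.0852) ended with the 2 groups alone. Cd3e also ended with no filter (0.0524), a pseudocount of 16 (0.0588) or none (0.0515), Tyrobp with quantile normalization (0.0508), and Cd68 (0.0607) and Tyrobp (0.0793) with the replicate block. In db/db against db/m, Calb1 ended with 7 further alternatives (0.0524 to 0.105), Slc8a1 with a pseudocount of 16 (0.0550), Rgs5 with the 2 groups alone (0.0609) or the replicate block (0.0524), and Sh2d2a with a pseudocount of 16 (0.0943), the 2 groups alone (0.0837) or the replicate block (0.0524). Dim values were not tested against background, since no detection calls were used.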
